A study of Mus musculus with 3 samples.

Results

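The genes described here are *Itgbl1*, which encodes a secreted protein with integrin beta-like repeats, and 9 integrin subunit genes whose products take part in binding extracellular matrix: *Itgb1*, *Itgb3*, *Itgb5*, *Itgb8*, *Itga1*, *Itga5*, *Itga8*, *Itga11* and *Itgav*. They are 10 of the 32285 genes counted, were listed by symbol and were matched by Ensembl ID. The study profiled full-thickness punch wounds on the back of male C57BL/6J mice, an inbred strain, with single-cell RNA sequencing in droplets, on Days 3, 7 and 14 after the injury. All 3 groups were untreated wounds of the same strain that differed in the day of collection, the mice of the study were 7 to 12 weeks old, and unwounded skin was not analysed here. Unsorted cells of several wounds were pooled into 1 library for each day, which leaves no replicate to test a difference between days, and no p-value is given. A ratio between days is a ratio of 2 libraries and cannot be assigned to the day itself.

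Integrins are heterodimers of an alpha and a beta subunit that span the membrane and couple the matrix outside the cell to actin inside it. The beta1 subunit pairs with alpha1 and alpha11 to bind collagens, and with alpha5 and alpha8 to bind fibronectin or nephronectin through the RGD motif. The alpha v subunit pairs with beta1, beta3, beta5 or beta8, binds vitronectin, fibronectin and other RGD proteins, and can release active TGF-beta from its latent store in the matrix. The *Itgbl1* product has no transmembrane segment and so is not itself a subunit of such a receptor.

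In the mouse genome (GRCm38) all 10 are protein-coding genes. *Itgbl1* lies at chr14:123659971-123975618 on the plus strand, *Itga11* at chr9:62677826-62783982 on the plus strand and *Itga5* at chr15:103344286-103366763 on the minus strand. The promoter windows of these 3 are shown because *Itgbl1* and *Itga11* were the members at least 2-fold higher on Day 7 than on Day 3 in fibroblast-like cells, and *Itga5* had the lowest ratio in both comparisons of days. Each window runs, on the strand of the gene, from 250 bases before to 50 bases after the RefSeq start (GRCm38.p6), and capitals mark matches, on either strand, to 3 searched motifs.
*Itgbl1*, chr14:123659890-123660189, plus strand: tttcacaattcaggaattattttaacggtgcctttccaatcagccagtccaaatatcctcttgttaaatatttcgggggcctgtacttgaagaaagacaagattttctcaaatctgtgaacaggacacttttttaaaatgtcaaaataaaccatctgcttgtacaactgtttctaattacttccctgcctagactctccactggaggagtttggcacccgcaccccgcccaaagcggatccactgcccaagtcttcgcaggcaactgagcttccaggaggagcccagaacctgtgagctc
*Itga11*, chr9:62677605-62677904, plus strand: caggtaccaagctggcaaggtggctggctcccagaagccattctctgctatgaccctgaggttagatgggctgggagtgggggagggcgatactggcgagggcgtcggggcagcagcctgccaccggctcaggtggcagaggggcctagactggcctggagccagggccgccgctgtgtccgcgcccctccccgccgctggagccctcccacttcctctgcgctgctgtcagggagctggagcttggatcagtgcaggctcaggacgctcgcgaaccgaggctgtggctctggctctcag
*Itga5*, chr15:103366742-103367041, minus strand: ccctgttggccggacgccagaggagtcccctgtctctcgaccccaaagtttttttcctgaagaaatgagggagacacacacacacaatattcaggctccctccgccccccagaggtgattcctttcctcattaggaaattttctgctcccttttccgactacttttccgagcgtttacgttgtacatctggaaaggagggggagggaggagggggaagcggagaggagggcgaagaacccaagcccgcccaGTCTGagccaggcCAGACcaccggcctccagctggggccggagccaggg

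The motifs were the AP-1 site TGANTCA, the SMAD box CAGAC and the TEAD site GGAATG, which are found in 7.81%, 49.6% and 14.7% of all 32851 promoter windows of this length. The windows of *Itgbl1* and *Itga11* held no match to any of them. The *Itga5* window held the SMAD box 2 times, at bases 2 and 15 of the transcript. *Itgb1*, whose window is not printed, held it 3 times and the TEAD site once. The windows of *Itgb8* and *Itga1* each held the SMAD box 1 time, and those of *Itgb5*, *Itga8* and *Itgav* held no match. GC content was 45.3% in the *Itgbl1* window, 68.0% in the *Itga11* window and 58.7% in the *Itga5* window, against a median of 52.7% over all windows. A match describes the sequence only. RefSeq windows were found for 9 of the 10 genes, all but *Itgb3*.

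The libraries held 5158, 22924 and 16611 cell barcodes and between 38133650 and 120940799 unique molecular identifiers (UMIs, tags that count captured mRNA molecules). Filters and removal of called doublets left 4360, 19590 and 13510 cells, which fell into 34 clusters, each given an "X-like" class from its marker genes. Pairs of libraries shared 19 to 111 barcodes, at most 0.834% of the smaller library. The 3 libraries held 502, 6225 and 7058 fibroblast-like cells. UMIs of all 8 fibroblast markers were found in them in each library, but these markers also served to name the class. Macrophage-like cells had UMIs of all 8 in each library too, so detection alone does not set the class apart. The median UMIs per fibroblast-like cell were 38069.5, 10051 and 9888.5, so the Day 3 cells were both fewer and deeper. Levels are given as CPM, the UMIs of a gene per 1000000 UMIs of the pooled cells, with exact Poisson intervals. All intervals are 95% intervals and cover counting error only. Because reads come from the 3' end of transcripts, levels are compared between cells and days and not between genes.

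*Itgbl1* showed the largest ratios between libraries among the 8 members with enough UMIs to be compared. In fibroblast-like cells it was at 8.91 CPM (7.63 to 10.3), 86.1 CPM (83.8 to 88.4) and 338 CPM (334 to 342) in the libraries of Days 3, 7 and 14, from 174, 5475 and 23773 UMIs. The 3 intervals do not overlap, and each later library was higher. The log2 ratio was 3.27 (3.05 to 3.50) for Day 7 over Day 3 and 1.97 (1.93 to 2.02) for Day 14 over Day 7. Over all tested genes of these cells the median log2 ratio was -0.19 and -0.18 in the same order, so a member with a ratio near that value moved like the typical gene.

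Of the collagen-binding alpha subunits among the members, *Itga11* had the larger difference between Days 3 and 7. *Itga11*, the alpha11 subunit, was at 4.81 CPM (3.89 to 5.89), 19.9 CPM (18.8 to 21) and 25 CPM (23.8 to 26.2) on Days 3, 7 and 14. Its log2 ratio was 2.05 (1.74 to 2.37) for Day 7 over Day 3 and 0.33 (0.22 to 0.44) for Day 14 over Day 7, so most of its difference lay between the first 2 libraries. *Itga1*, the alpha1 subunit, was at 13.6 CPM (12 to 15.4), 11.6 CPM (10.7 to 12.4) and 15.6 CPM (14.6 to 16.5). Its log2 ratio of Day 7 over Day 3, -0.24 (-0.44 to -0.03), was -1.63 with each library clustered alone and 0.12 as the mean of each cell's CPM, so its sign depends on the processing. For Day 14 over Day 7 the ratio was 0.43 (0.29 to 0.57). *Itgb1*, the beta1 subunit shared by most of these receptors, was at 541 CPM (531 to 552), 562 CPM (557 to 568) and 409 CPM (404 to 413). Its log2 ratio for Day 14 over Day 7 was -0.46 (-0.48 to -0.44), and for Day 7 over Day 3 it was 0.06 (0.02 to 0.09).

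*Itga5*, the alpha5 subunit of the main fibronectin receptor, was the one member that was lower in each later library by a similar step. Its level was 194 CPM (188 to 200), then 111 CPM (109 to 114), then 64.1 CPM (62.3 to 66.0). Both log2 ratios were -0.80, with intervals of -0.86 to -0.75 and -0.85 to -0.74. *Itgav*, the alpha v subunit, was also lower in each later library, at 118 CPM (113 to 123), 85.6 CPM (83.4 to 87.9) and 73.4 CPM (71.4 to 75.4). Its Day 14 to Day 7 log2 ratio of -0.22 (-0.28 to -0.17) lay close to the median of all genes. Each of the beta partners of alpha v had its own course. *Itgb3* was at 23.0 CPM (20.9 to 25.2), 39.0 CPM (37.5 to 40.6) and 37.4 CPM (36.0 to 38.9), with a log2 ratio of 0.76 (0.62 to 0.91) for Day 7 over Day 3. *Itgb5* differed little, at 121 CPM (116 to 126), 132 CPM (129 to 134) and 128 CPM (125 to 131).

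*Itgb8* and *Itga8* were close to the detection limit in fibroblast-like cells. *Itgb8* was at 1.18 CPM (0.746 to 1.77), 1.35 CPM (1.08 to 1.67) and 1.34 CPM (1.08 to 1.64). *Itga8*, the alpha8 subunit that binds nephronectin, had 0, 21 and 134 UMIs in the 3 libraries, or 0, 0.330 CPM (0.204 to 0.505) and 1.91 CPM (1.60 to 2.26). The count of 0 on Day 3 allows a level of up to 3 UMIs, or 0.154 CPM, and no order of Days 3 and 7 is read from these counts. With each library clustered alone the direction reversed, to a log2 ratio of -2.11, and over all barcodes *Itga8* was at 0.708 CPM (0.467 to 1.03) in the first library and 0.661 CPM (0.525 to 0.823) in the second. Its log2 ratio for Day 14 over Day 7 was 2.53 (1.86 to 3.27), and it ran from 1.17 with called doublets kept to 3.33 at a Leiden resolution of 2.

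**Figure D1:**
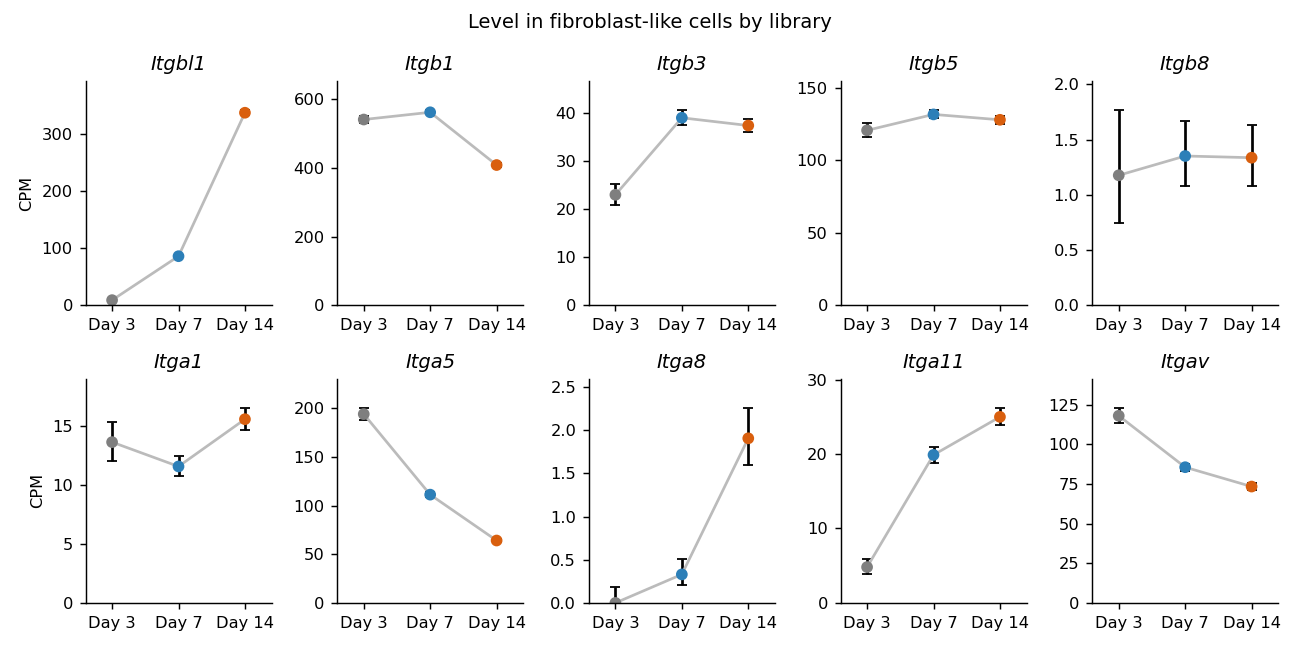
Level of each of the 10 genes in fibroblast-like cells (CPM, y axis, each panel with its own scale from 0) in the libraries of Days 3, 7 and 14 (x axis), with 1 library per day and exact Poisson 95% intervals for counting error. *Itgbl1* goes from 8.91 to 338 CPM, *Itga11* from 4.81 to 25 CPM, and *Itga5* the other way, from 194 to 64.1 CPM.

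Genes were compared between days at a mean of at least 5 CPM over both libraries, which 8 of the 10 members reached (all but *Itgb8* and *Itga8*). Between Day 7 and Day 14, *Itgbl1* was the 1 member at least 2-fold higher, and none was at least 2-fold lower. Of the 9197 genes compared there, 2.74% were at least 2-fold higher on Day 14 and 4.60% at least 2-fold lower. Between Day 3 and Day 7, *Itgbl1* and *Itga11* were at least 2-fold higher and no member was at least 2-fold lower, against 4.96% of 9504 genes higher and 9.24% lower. The median log2 ratio of the 8 members was 0.09 for Day 7 over Day 3 and -0.05 for Day 14 over Day 7. Macrophage markers, which fibroblasts should lack, summed to 64.3, 195 and 73.4 CPM in fibroblast-like cells on Days 3, 7 and 14, with all 9 detected each time, and to 5651, 8757 and 12320 CPM in macrophage-like cells. Pericyte markers summed to 254, 121 and 175 CPM in fibroblast-like cells, against 9509 and 9523 CPM in the pericyte-like cells of Days 7 and 14. Their part in the ratios was not tested.

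The next comparison asked which cells of the wound hold these transcripts. Most *Itgbl1* UMIs lay in fibroblast-like cells, which held 98.9%, 97.2% and 97.2% of them on Days 3, 7 and 14. The share was lower when each library was clustered alone, 86.7% on Day 7 and 73.9% on Day 14, and it was 74.5% on Day 14 with called doublets kept. *Itga11* was spread in a similar way, with 97.9%, 96.3% and 95%, followed by *Itgb3* with 86.2%, 85.3% and 94.0%. For *Itga5* the shares were 80.3%, 77.3% and 76.2%, and for *Itgb1* 67.0%, 69.5% and 72.3%. *Itgb5* and *Itgav* were at 55.1% and 50.8% on Day 3 and at 86.6% and 75.8% on Day 14. The share of cells that were fibroblast-like also went from 11.5% to 52.2% between those libraries, so these shares follow the makeup of each library too. *Itga1* and *Itgb8* were mostly elsewhere on Day 14, when fibroblast-like cells held 35.1% and 12% of their UMIs.

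Outside fibroblast-like cells, *Itgbl1* was highest in epithelial cell-like cells, at 18.5 CPM (8.47 to 35.2) on Day 7, then 61.0 CPM (54.6 to 67.9) on Day 14. The Day 7 interval overlapped that of neutrophil-like cells, the next class in that library. On Day 14 the order then ran through endothelial, T cell, mesenchymal, pericyte, dendritic, Schwann and macrophage-like cells, from 30.7 to 13.5 CPM, and from endothelial cell-like cells on down the intervals of neighbours in that order overlapped. *Itgbl1* was also set against the UMIs of the 4 stromal genes *Col1a1*, *Col1a2*, *Col3a1* and *Dcn* in the same cells. Per 1000 such UMIs, the Day 14 library had 2.46 *Itgbl1* UMIs in fibroblast-like cells, 2.97 in epithelial, 2.63 in macrophage, 2.34 in T cell and 2.12 in endothelial cell-like cells. On Day 7 it was 0.780 in fibroblast-like, 0.805 in epithelial and 0.970 in macrophage-like cells. Not all classes of that library were near these values. Pericyte-like cells had 2 *Itgbl1* UMIs, or 1.74 CPM, beside 17345 CPM of fibroblast markers. The 64 mesenchymal cell-like cells of Day 7 had 0 CPM of *Itgbl1*. Dendritic and mesenchymal cell-like cells were at 3.13 and 2.59 on Day 14, while pericyte and Schwann cell-like cells had lower ratios, of 1.33 and 0.709. The part of free stromal RNA in the *Itgbl1* UMIs of these classes was not tested.

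The other members had their highest levels in different classes. Pericyte-like cells, which wrap small vessels, were highest for *Itga1*, at 1109 CPM (1049 to 1172) on Day 7, then 762 CPM (721 to 804) on Day 14, and for *Itgb1*, at 1453 and 1322 CPM. Fibroblast-like cells had 11.6 and 15.6 CPM of *Itga1* in the same libraries. Schwann cell-like cells, a class of 138 cells on Day 14 whose leading genes also included the melanocyte genes *Dct* and *Pmel*, held *Itgb8* at 918 CPM (841 to 999), from 534 UMIs. The next class on Day 14, mesenchymal cell-like cells, was at 17.3 CPM. *Itgb8* is thus a gene of this small class in the Day 14 library, and 10 such cells on Day 7 and 0 on Day 3 were too few for a level.

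Integrin alpha v and its partners were not held by stromal cells alone. T cell-like cells had the highest *Itgav* level on Day 7, at 288 CPM (251 to 329), and 170 CPM (141 to 203) on Day 14, when Schwann cell-like cells were at 289 CPM (247 to 336). T cell-like cells also had *Itgb8* at 58.7 CPM (42.6 to 78.8) and *Itgb3* at 88.0 CPM (68.1 to 112) on Day 7. On Day 14 these were 15.8 and 33.1 CPM. Macrophage-like cells had lower levels of *Itgb5* and *Itgav* on Day 14 than on either earlier day. *Itgb5* was at 148, 136 and 61.4 CPM there on Days 3, 7 and 14, and *Itgav* at 161, 110 and 58.0 CPM. Their *Itga1* was at 34.9, 23.7 and 6.68 CPM, with a log2 ratio of -1.83 for Day 14 over Day 7, while *Itga5* was at 58.0, 51.1 and 73.3 CPM. *Itga5* thus was higher on Day 14 than on Day 7 in macrophage-like cells and lower in fibroblast-like cells. The clusters that made up the macrophage-like class also differed between libraries. Cluster 4 held 1727, 466 and 7 cells on Days 3, 7 and 14, and cluster 3 held 36, 949 and 1418. The part of this makeup in the macrophage-like levels was not tested.

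Cells of the vessels had more *Itgb3* on Day 7 than on Day 14, and endothelial cell-like cells also had more *Itga5*. Endothelial cell-like cells were at 76.3 CPM (64.4 to 89.8) of *Itgb3* on Day 7 and 16.4 CPM (10.5 to 24.4) on Day 14, and at 186 CPM (167 to 206) and 94.3 CPM (79.2 to 111) of *Itga5*. Pericyte-like cells had 37 UMIs of *Itgb3* on Day 7 and 5 on Day 14, a log2 ratio of -3.48. *Itga8* was highest in pericyte-like cells on both days, at 21.7 CPM (14.1 to 32.1) and 23.0 CPM (16.4 to 31.3), followed on Day 14 by mesenchymal cell-like cells at 13.1 CPM (8.72 to 19.0), whose interval overlaps. These levels are well above those of fibroblast-like cells.

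**Figure D2:**
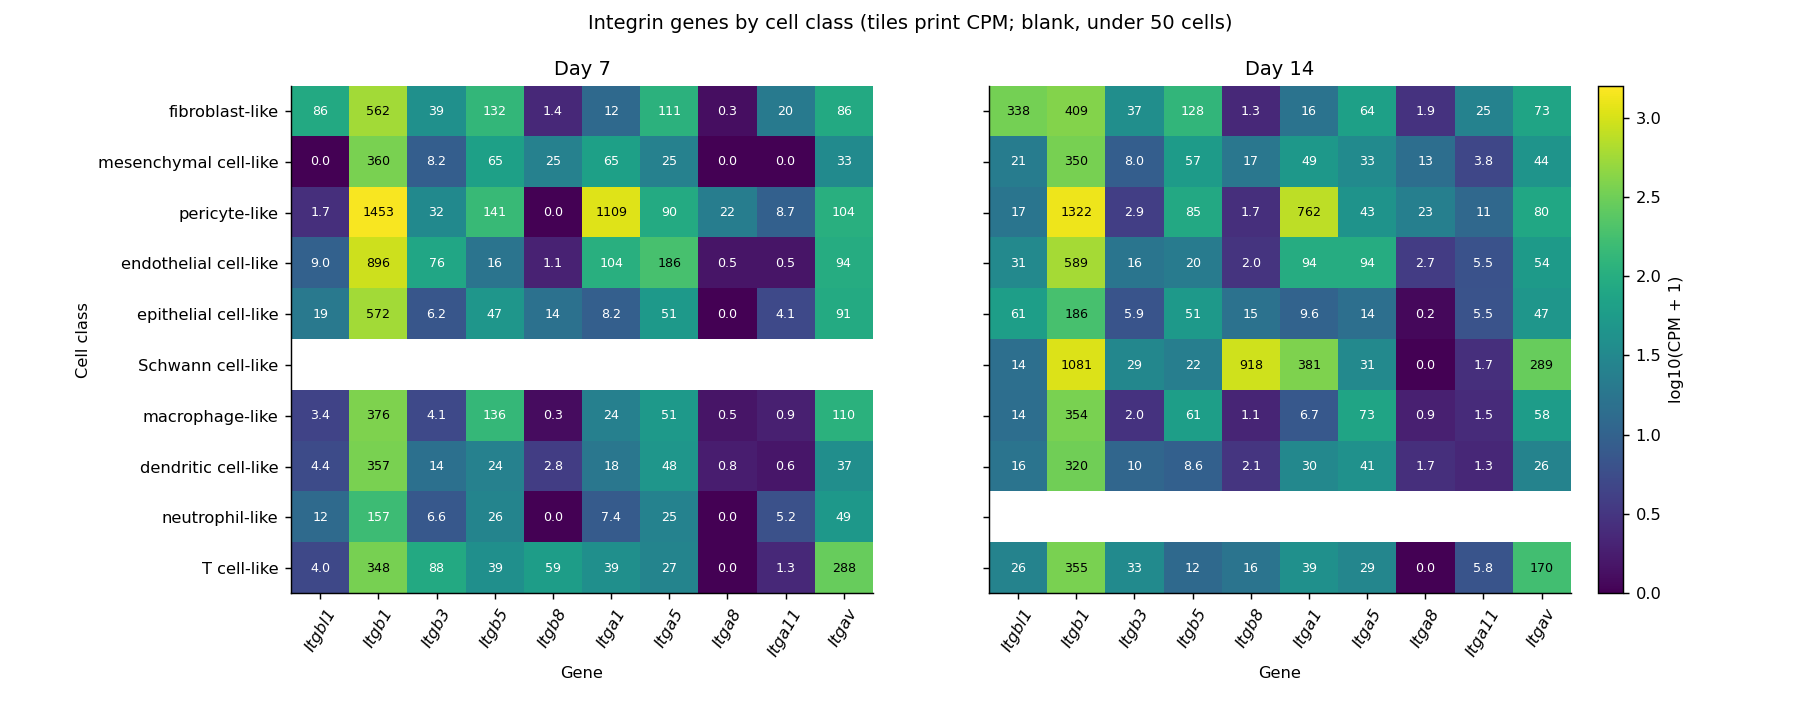
Level of each gene (x axis) in each cell class (y axis) on Day 7 and Day 14, with the colour on a log10(CPM + 1) scale and the CPM printed in each tile. *Itgbl1* and *Itga11* are highest in the fibroblast-like row, *Itga1* in the pericyte-like row (1109 and 762 CPM) and *Itgb8* in the Schwann cell-like row of Day 14 (918 CPM), and blank rows are classes with under 50 cells.

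Fibroblast-like cells formed 10 clusters, made without the members, any other integrin gene or the gene lists below, so the levels of members by cluster were not used to form them. On Day 7, *Itgbl1* ranged from 35.4 CPM (31.2 to 40.1) in cluster 13, led by *Akr1c18*, *Efhd1* and *Pi16*, to 210 CPM (183 to 240) in cluster 5, led by *Cilp* and *Thbs4*. Cluster 5 held 100 cells on Day 7 and 2032 on Day 14. Leading genes were taken over the cells of all days, so those of cluster 5 describe mainly its Day 14 cells. Cluster 1, led by *Mgp* and *Gdf10*, was at 177 CPM (167 to 187). The other clusters of Day 7 lay between 36.9 and 89.3 CPM. On Day 14 the highest was cluster 9, led by *Igfbp2*, *Tnmd* and *Gal*, at 414 CPM (404 to 425), followed by clusters 5 and 1 at 369 and 353 CPM, and the lowest was cluster 8, led by *C3* and *Pi16*, at 133 CPM (123 to 143).

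The makeup of the fibroblast-like class differed between the libraries along with these levels. Clusters 10, 14 and 8 held 22.7%, 18.6% and 17.0% of the fibroblast-like cells on Day 7, and clusters 1, 5 and 9 held 28.8%, 28.8% and 20.9% on Day 14. *Itgbl1* was also higher on Day 14 within each of the 6 clusters that had at least 50 cells in both libraries. Clusters 1, 5 and 8 had log2 ratios of 1.00 (0.91 to 1.08), 0.81 (0.62 to 1.01) and 0.57 (0.43 to 0.71). Clusters 10, 13 and 16 had log2 ratios of 1.20 (0.90 to 1.48), 2.18 (1.97 to 2.41) and 2.10 (1.56 to 2.68). On Day 3, cluster 26, led by *Saa3* and *Cxcl5* and found mainly in that library, was at 10.5 CPM (8.49 to 12.9) of *Itgbl1*. Cluster 19 was at 5.26 CPM (3.90 to 6.96) on Day 3 and at 36.9 CPM (32.2 to 42.0) on Day 7, a log2 ratio of 2.81 (2.36 to 3.29). For Day 14 over Day 7, 4 of the 6 clusters had a ratio below 1.97, the ratio of the whole class. Clusters 9 and 14 came almost wholly from 1 library each, so for them the cluster and the library cannot be told apart.

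*Itga5* differed less within clusters than over the class. Its within-cluster log2 ratios for Day 14 over Day 7 ranged from -0.58 (-0.83 to -0.32) in cluster 5 to -0.04 (-0.72 to 0.62) in cluster 16, against -0.80 over the class. By level it was highest on Day 7 in cluster 10, led by *H19*, *Ereg* and *Lrrc15*, at 158 CPM (152 to 164), and in cluster 19, led by *Cxcl5* and cell cycle genes, at 154 CPM (144 to 164). It was lowest in cluster 13, at 51.8 CPM (46.6 to 57.4). *Itgb1* behaved alike, with within-cluster ratios from -0.19 to 0.02 against -0.46 over the class. Its highest Day 7 clusters were 14, led by *Tnn*, *Prss35* and *Col12a1*, at 745 CPM (731 to 761) and 19 at 744 CPM (723 to 766), and its lowest were cluster 8 at 376 CPM (365 to 387) and cluster 16, of few UMIs per cell, at 332 CPM (288 to 380).

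*Itga11* was highest on Day 7 in cluster 14, at 27.4 CPM (24.6 to 30.5), and lowest in cluster 19, at 10.2 CPM (7.83 to 13.1). On Day 14 it was highest in cluster 8, at 35.2 CPM (30.4 to 40.4), the cluster with the lowest *Itgbl1* level. *Itga8* in fibroblast-like cells came mostly from cluster 9, which held 83 of its 134 UMIs on Day 14, at 6.04 CPM (4.81 to 7.48). That cluster also had the highest sum of pericyte markers on Day 14, at 518 CPM with all 8 detected, against 44.4 to 109 CPM in the other clusters. The part of pericyte transcripts in that *Itga8* level was not tested. *Itgb5* varied least, between 92.7 and 157 CPM on Day 7.

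**Figure D3:**
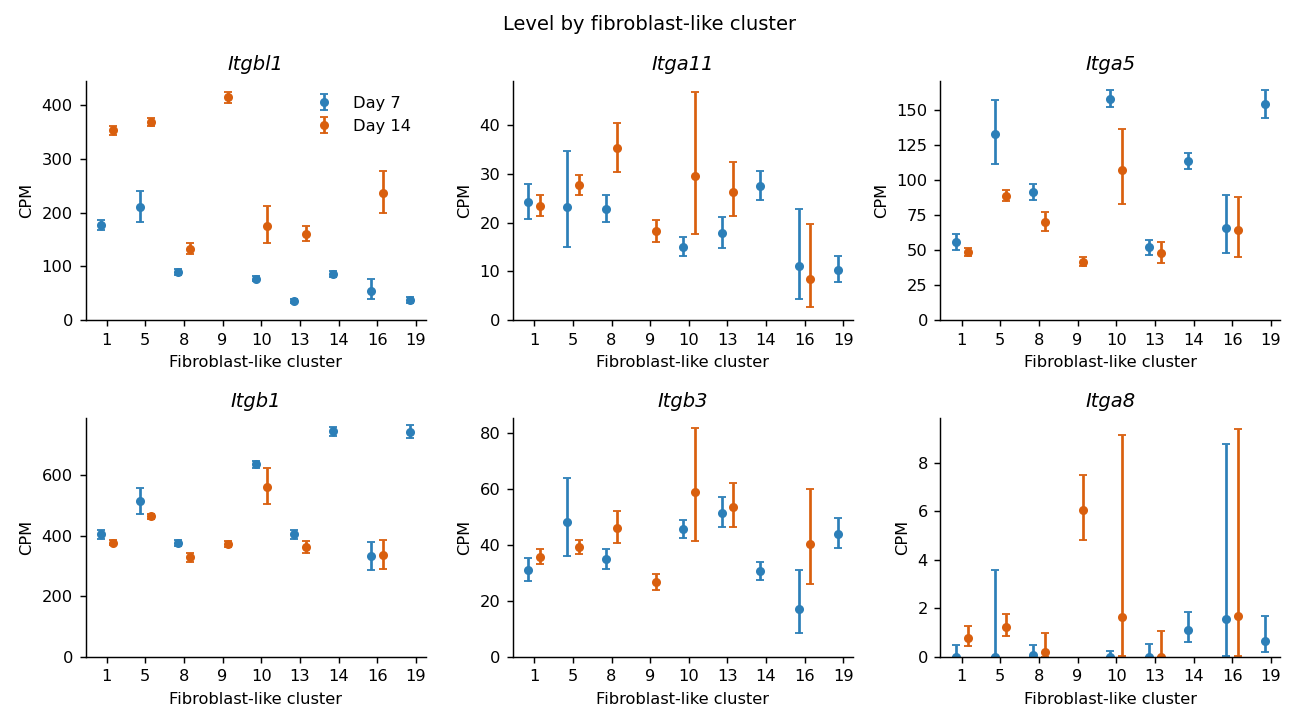
Level of 6 of the genes (CPM, y axis, from 0) by fibroblast-like cluster (x axis, clusters with at least 50 cells of the library) on Day 7 and Day 14, with exact Poisson 95% intervals. *Itgbl1* is higher on Day 14 in every cluster shown on both days, while *Itga5* and *Itgb1* differ more between clusters than between days within a cluster.

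Co-detection asked whether fibroblast-like cells with *Itgbl1* transcripts also carried those of the integrin subunits. Each cell was thinned at random to 5000 UMIs, which left 390, 5406 and 5830 of the fibroblast-like cells. At that depth 13 cells had an *Itgbl1* UMI on Day 3, or 3.33% (1.79 to 5.63%), 1537 on Day 7, or 28.4% (27.2 to 29.7%), and 3964 on Day 14, or 68.0% (66.8 to 69.2%). Without thinning these shares were 16.3%, 39.5% and 75.6%. Among macrophage-like cells, which should lack the gene, 0.193%, 1.07% and 5.23% had a UMI at 5000 UMIs, with median depths of 4216, 2699 and 3718.5 UMIs before thinning. Both the share of cells and the UMIs per cell were higher on Day 14, with a mean of 1.63 UMIs per thinned cell against 0.438 on Day 7. Cells with at least 5 *Itgbl1* UMIs numbered 0 of 390 on Day 3, 29 on Day 7 and 424 on Day 14.

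On Day 7, *Itga11* was the 1 member found at least 25% more often in *Itgbl1*-positive than in *Itgbl1*-negative cells, in 12.3% (10.7 to 14.0%) of 1537 against 7.37% (6.56 to 8.24%) of 3869, a ratio of 1.67. Of the 9652 genes found in 2% to 98% of the cells, 3.78% were found at least 25% more often in positive cells and 12.2% at least 25% more often in negative cells, and the median ratio was 0.948. The ratio for *Itga11* was 1.63 when taken within clusters. Over 10 random draws of the thinning it ranged from 1.63 to 1.93. *Itgb5* had a ratio of 1.08, in 49.9% against 46.3%, and *Itga1* one of 1.04 that ranged from 0.970 to 1.45 over the draws. *Itgb1*, *Itgav* and *Itga5* had ratios of 0.977, 0.910 and 0.905. *Itgb3* was found in fewer of the positive cells, 14.6% (12.9 to 16.5%) against 17.4% (16.2 to 18.7%), a ratio of 0.840, and these intervals overlap slightly.

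On Day 14, no member passed that limit in positive cells, and *Itga1* was the 1 member that passed it in negative cells, with a ratio of 0.778 of positive to negative cells. The background was 4.60% of 9252 genes found at least 25% more often in positive cells and 11.0% in negative cells, with a median ratio of 0.957. The *Itga1* shares were 5.75% (5.05 to 6.52%) and 7.40% (6.25 to 8.68%), whose intervals overlap, and its ratio was the lowest of 10 random draws of the thinning, which reached 0.941. Within clusters the *Itga1* ratio was 0.780, but single clusters lay on both sides of 1. It was 0.522 in cluster 5, 0.843 in cluster 8 and 0.836 in cluster 13, against 1.37 in cluster 1 and 1.45 in cluster 9. Only in cluster 5 were the intervals of the 2 *Itga1* shares apart. *Itgb3* ranged from 0.768 to 0.922 and *Itga5* from 0.769 to 0.850 over the draws, so they too passed the limit in negative cells in some draws. *Itgb5* had the highest ratio of the members, 1.19, with 46.8% (45.2 to 48.3%) of 3964 positive cells against 39.2% (37.0 to 41.4%) of 1866 negative cells, and 1.18 within clusters. *Itga11* was found in 11.5% (10.5 to 12.5%) against 10.9% (9.55 to 12.4%), a ratio of 1.05 whose 2 shares overlap in their intervals. The ratio was 0.822 for *Itgb3*, 0.850 for *Itga5*, 1.02 for *Itgav* and 1.01 for *Itgb1*. *Itgb8* and *Itga8* were in under 2% of cells on both days, so no ratio is given for them. On Day 3 the 13 positive cells were too few for a ratio. On Day 14, fibroblast markers summed to 147559 CPM in positive and 117316 CPM in negative cells, and pericyte markers to 196 and 122 CPM. On Day 7 the fibroblast sums were 133784 and 108697 CPM and the pericyte sums 127 and 106 CPM. The part of these differences in the ratios was not tested. Within clusters the *Itgb3* ratios were 0.890 on Day 7 and 0.894 on Day 14, beside medians of all genes of 0.962 and 0.969, and cluster 1 on Day 7 and cluster 8 on Day 14 had ratios above 1, of 1.09 and 1.30.

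**Figure D4:**
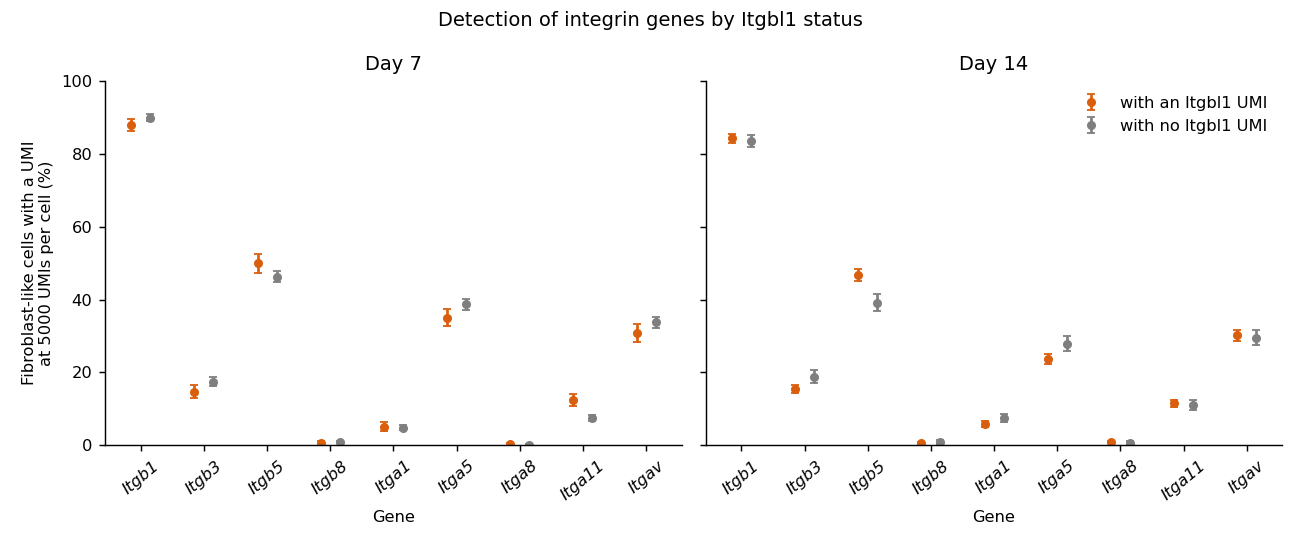
Share of fibroblast-like cells with a UMI of each integrin gene (%, y axis, at 5000 UMIs per cell) among cells with and without an *Itgbl1* UMI on Day 7 and Day 14, with Clopper-Pearson 95% intervals. *Itga11* stands apart on Day 7 (12.3% against 7.37%) and *Itgb5* on Day 14 (46.8% against 39.2%), while the share of *Itgb3* is lower in positive cells on both days, with a slight overlap of intervals on Day 7.

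The Day 14 shares also changed with the number of *Itgbl1* UMIs in a cell. *Itgb5* was in 39.2% (37.0 to 41.4%) of cells with 0 *Itgbl1* UMIs, 42.5% (39.9 to 45%) with 1, 48.8% (46.6 to 50.9%) with 2 to 4 and 52.4% (47.5 to 57.2%) with 5 or more. *Itgb3* ran the other way, in 18.8% (17.0 to 20.6%), 16.3% (14.4 to 18.2%), 15.6% (14.1 to 17.3%) and 11.3% (8.47 to 14.7%) of the same cells. The intervals of neighbouring levels overlap. *Itga11* was flat at 10.9% to 11.6%. These shares pool the clusters, and cluster 9 had the highest *Itgbl1* level and the lowest *Itgb3* level, 26.7 CPM, on Day 14. The part of the clusters in these shares was not tested. On Day 7, *Itga11* was in 7.37% of cells with 0 *Itgbl1* UMIs, 11.7% with 1 and 13.1% with 2 to 4.

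The Day 7 shares of *Itga11* were also taken cluster by cluster. In cluster 10, *Itga11* was in 12.4% of positive and 3.78% of negative cells, a ratio of 3.29, and in cluster 19 in 13.8% and 3.27%, a ratio of 4.21. The intervals of these shares do not overlap. In cluster 14 the shares were 16.8% and 10.2%, a ratio of 1.65, and in cluster 8 they were 13.3% and 10.5%. Clusters 1 and 13 had ratios of 1.03 and 0.927, and cluster 5 held only 52 positive and 42 negative cells. On Day 14 the ratios ranged from 0.523 in cluster 13 to 1.36 in cluster 5. Whether the ratio differs between clusters was not tested, since the cells come from 1 library per day.

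**Figure D5:**
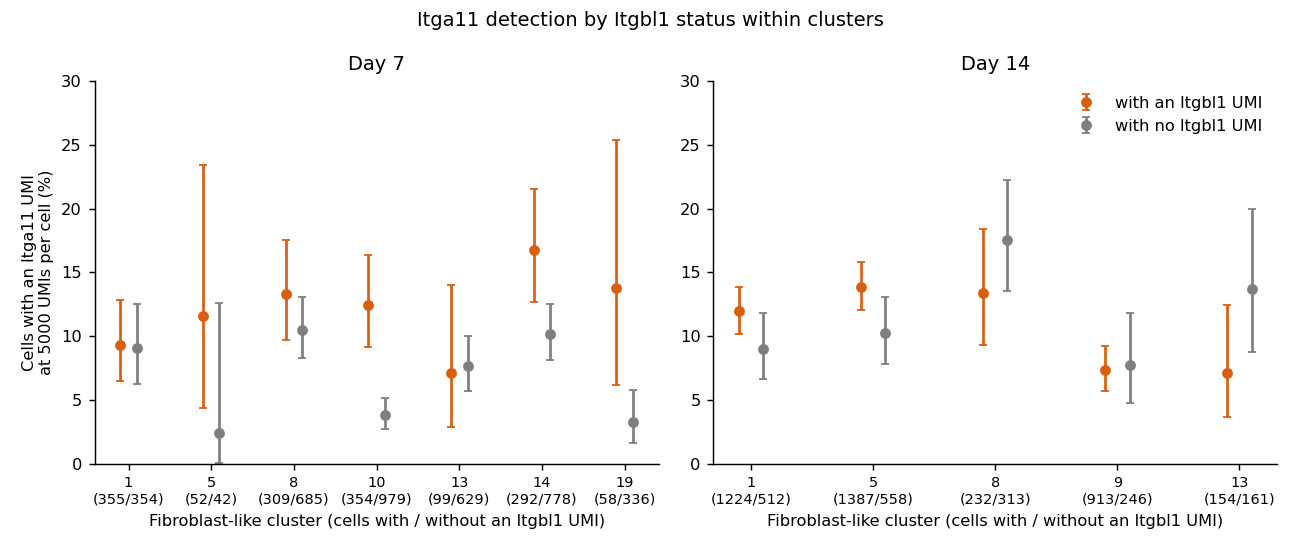
Share of cells with an *Itga11* UMI (%, y axis, at 5000 UMIs per cell) among cells with and without an *Itgbl1* UMI in each fibroblast-like cluster (x axis, with cell numbers) on Day 7 and Day 14, with Clopper-Pearson 95% intervals. On Day 7 the intervals are apart in clusters 10, 14 and 19, and on Day 14 they overlap in every cluster shown.

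The known receptor pairs given here were detected together about as often as the product of their single shares. At 5000 UMIs per cell on Day 7, *Itgb1* and *Itga5* were both found in 34.4% (33.1 to 35.7%) of fibroblast-like cells, 1.02 times the product. *Itgav* and *Itgb5* were both in 15.7% (14.8 to 16.7%), 1.01 times the product, and *Itgav* and *Itgb3* in 5.77% (5.16 to 6.43%), 1.05 times the product. On Day 14 the same ratios were 1.03, 1.04 and 0.983. *Itgb1* was found in 91.4% (90.1 to 92.6%) of the *Itga5*-positive cells on Day 7 and in 86.4% (84.6 to 88.1%) on Day 14. Over all fibroblast-like cells at that depth it was found in 89.4% and 84.1%. With *Itgb1* in so many cells, its pair ratio could not lie far above 1, so it says little about pairing.

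Other genes of the adhesion machinery were followed as lists in fibroblast-like cells at the same 2-fold limit. Of 17 other integrin subunits, 3 passed the level filter between Day 7 and Day 14 and 4 between Day 3 and Day 7. *Itga6*, a laminin-binding subunit, was higher on Day 14, at 0.768, 3.10 and 9.38 CPM, and *Itga2*, another collagen-binding subunit, was lower on Day 7 than on Day 3, at 8.45, 1.90 and 1.96 CPM. *Itga2b*, known from platelets, was at 12.5, 11.6 and 20.9 CPM, and *Itga9* at 12.7, 11.9 and 14.9 CPM. The myeloid subunit *Itgam* was at 4.40, 8.05 and 0.939 CPM in fibroblast-like cells and at 798, 383 and 235 CPM in macrophage-like cells.

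Matrix ligands of integrins included genes past the limit in both directions. Between Day 7 and Day 14, 16 of 17 passed the filter, 3 were at least 2-fold higher and 3 at least 2-fold lower, beside 2.74% and 4.60% of all genes, with a median log2 ratio of 0.10. *Ccn2*, a matricellular target of TGF-beta signalling, had a log2 ratio of 1.58 (1.51 to 1.65) and the basement membrane collagen *Col4a2* one of 1.28 (1.21 to 1.35). *Tnc*, tenascin C of early granulation tissue, had -2.14 (-2.17 to -2.11). The largest was *Spp1*, osteopontin, with -5.37 (-5.50 to -5.24), at 293 and 7.10 CPM in fibroblast-like cells and at 1802 and 125 CPM in macrophage-like cells of the same libraries. The part of macrophage transcripts in that ratio was not tested. Between Day 3 and Day 7, 15 passed, 3 were higher and 1 lower, beside 4.96% and 9.24% of all genes, with a median of 0.48. *Postn*, periostin, had a log2 ratio of 1.92 (1.90 to 1.93), *Spp1* one of 1.82, *Ccn2* one of -1.40 and *Thbs1* one of -0.82. Macrophage markers summed to 64.3 CPM on Day 3 and 195 CPM on Day 7 in fibroblast-like cells. The part of macrophage transcripts in this *Spp1* ratio was not tested either.

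Adaptors and kinases act with integrins inside the cell. Of 25 genes, 21 passed in each comparison, with a median log2 ratio of -0.08 for Day 7 over Day 3 and -0.23 for Day 14 over Day 7, near the medians of all genes. The 1 gene past the limit was *Actn1*, alpha-actinin, which was lower in both, at 266, 104 and 26.8 CPM. As 1 of 21 genes it is set beside the 9.24% and 4.60% of all genes that were lower in these comparisons, and nothing about the list is read from it. The next lowest were *Lims1* at -0.95 for Day 7 over Day 3 and *Src* at -0.89 for Day 14 over Day 7, and the highest were *Sharpin* and *Tns1* at 0.67 and 0.54 in the first comparison and *Lims2* and *Itgb1bp1* at 0.42 and 0.22 in the second. Of 9 TGF-beta ligands and binding proteins, 8 passed in each. *Ltbp4*, a latent TGF-beta binding protein of elastic fibres, was at 1.43, 10.2 and 71.3 CPM, with log2 ratios of 2.83 and 2.81. *Tgfb3* was at 5.37, 27.7 and 39.1 CPM, and *Ltbp2* at 39.6, 8.60 and 13.0 CPM. *Lrrc32*, which anchors latent TGF-beta at the cell surface, was at 52.4, 33.9 and 25.6 CPM, and *Tgfb1* at 20.3, 23.6 and 15.1 CPM. The median log2 ratios of this list were 0.38 and 0.08.

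The genes most like *Itgbl1* were named by the Pearson correlation of log2(CPM + 1), as a description only, since points of 1 library share its depth. Over 22 class and day points and 10735 genes, they were *Angptl1* with r of 0.966, *Cpz* with 0.949, *Clec3b* with 0.939, *Fbln7* with 0.931 and *Pdgfrl* with 0.922. Of the members, *Itga11* came closest, at 0.816 and rank 34, and the next was *Itgb3* at 0.304. Over 18 points of fibroblast-like cluster and day and 7696 genes, the leading genes were *Ctsk* with r of 0.946, *Mfap2* with 0.943, *Angptl1* with 0.929, *Gpnmb* with 0.924 and *Smoc2* with 0.922. *Itga11* was again the closest member there, at 0.734 and rank 223. These points span the 3 libraries, and the part of the difference between libraries in r was not tested. On Day 7 alone, clusters 5 and 1, the highest for *Itgbl1*, were behind only cluster 14 for *Itga11*. On Day 14 alone, cluster 8 had the highest *Itga11* level, 35.2 CPM, and the lowest *Itgbl1* level, 133 CPM. *Itga5*, *Itgav* and *Itgb1* were at -0.57, -0.55 and -0.40, with ranks 5604, 5515 and 4731, so many of the 7696 genes had lower values.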

How the data were processed

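Cells of skin wounds on Days 3, 7 and 14 were measured with the Chromium 3' v3.1 chemistry, 1 library per day. The authors deposited raw UMI counts per gene and barcode, made with Cell Ranger 6.0.0 against mm10 according to the submitters' processing notes, and the annotation release is not given in the sources used here. Gene coordinates were taken from GENCODE for GRCm38, the same assembly, and 32158 of 32285 genes had a symbol. The members and gene lists were chosen with earlier results of these data known.

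Barcodes under 200 genes, under 500 UMIs or over 10% mitochondrial UMIs were left out, and 4452, 21568 and 14472 remained. Doublets were scored against simulated ones among 50 neighbours, and the 92, 1978 and 962 cells with the highest scores were removed (0.5 of the number that a rate of 0.8% per 1000 barcodes gives), so doublets remain. The libraries were clustered together (Leiden, leidenalg 0.10.2, resolution 1, 2000 variable genes, 30 principal components, 15 neighbours) without the 192 genes of the members, lists, other integrins, mitochondrial and ribosomal genes and *Gm42418*. Clusters were named from fixed markers when at least 3 were detected in 10% of the cells and lay 1 log2 unit above the 25% quantile of clusters. The mesenchymal cell markers followed the study's own cluster results on these same libraries, so that list is not independent of the data. A cluster of low UMIs and one led by *Cd207*, with 1383 cells together, stayed unnamed. The score behind the names was changed once the clusters, but no member values, had been viewed, and 34 clusters resulted, of which 10 were fibroblast-like. Cluster names differ from those of the study, since cells were clustered anew and without alignment.

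UMIs were summed per class or cluster with at least 50 cells and given as CPM with exact Poisson intervals. For ratios the intervals are exact conditional binomial, and for shares Clopper-Pearson (scipy 1.17.1). Intervals are at 95%, for counting error only, and a 0 was limited by 3 counts. Called meant at least 2-fold at a mean of at least 5 CPM, or a share of cells at least 25% above the other at 5000 UMIs per cell. Acta2-high cells had at least 5 *Acta2* UMIs at that depth. Besides the members, the text names the 2 highest and 2 lowest genes of each list that passed the filter, the 5 genes most like *Itgbl1* (among those with at least 20 CPM in a point), and leading genes of clusters. *Dct* and *Pmel* were named after their values were seen. The ratio intervals, the fold calls and the ratio of shares were tested on simulated data, and the clustering steps were not. Scaling, filters, doublet removal, resolution, thinning and separate clustering were varied.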

Additional observations from a re-analysis of the deposited data

How the results depend on the processing

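With 1 library per day, no test of the days can be made, and no replicate could be left out. No paired analysis was possible because each day has a single library. *Itgbl1* kept its direction under all alternatives for fibroblast-like cells, with log2 ratios from 1.91 to 2.16 for Day 14 over Day 7 and from 2.96 to 3.47 for Day 7 over Day 3. *Itga11* ranged from 1.87 to 2.32 for Day 7 over Day 3, and *Itga5* from -0.81 to -0.60 and from -0.84 to -0.61. Small ratios changed sign under some settings, for *Itgb3*, *Itgb5* and *Itgb8* between Day 7 and Day 14 and for *Itgb1* and *Itga1* between Day 3 and Day 7, where *Itga1* ran from -1.63 to 0.12. The 1 member past 2-fold between Day 7 and Day 14 became 2 at 1.5-fold, with *Itga5*, lower. Of all genes, 6.83% were higher and 15.9% lower at 1.5-fold. With no level filter the 1 member became 2, with *Itga8*, which had 21 UMIs on Day 7 and 134 on Day 14. The shares of all genes with no filter are not given, so nothing is read from that count. The 2 members between Day 3 and Day 7 became 4 at 1.5-fold, with *Itgb3*, higher, and *Itga5*, lower. Of all genes, 10.8% were higher and 24.0% lower there. At a mean of at least 20 CPM, which removes *Itga11*, 1 remained, and the shares of all genes at that filter are not given. *Itga8* for Day 7 over Day 3 reversed to -2.11 with each library clustered alone and to -0.85 with unnamed clusters of best fibroblast score added there, at counts near 0. Members found at least 25% more often in *Itgbl1*-positive cells were 0 on Day 14 but 1 at 2000 UMIs per cell (*Itga11*) and 1 in random draws 5 (*Itgb5*) and 7 (*Itga11*). On Day 7 they were 1 (*Itga11*) but 2 in draws 2, 4, 5, 8 and 10, with *Itga1* added. The shares of all genes in these draws and at 2000 UMIs are not given, so nothing is read from these counts. On Day 14, *Itga1* passed the same limit in negative cells, and *Itgb3* and *Itga5* passed it there in some draws. The share of *Itgbl1* UMIs in fibroblast-like cells was 97.2% on Day 7 and 86.7% with libraries clustered alone, 88.6% at resolution 2 and 95.6% with doublets kept. On Day 14 it was 97.2%, and 73.9% clustered alone, 97.4% at resolution 0.5, 96.8% at resolution 2 and 74.5% with doublets kept. Adding unnamed clusters of best fibroblast score to the libraries clustered alone, an alternative chosen after seeing the data, gave 96.8%. No such cluster existed in the joint clustering, so this was not run there. In all, 67 alternative values of the main results stayed within the limits set for them and 20 moved, and for single genes 434 stayed, 95 moved and 2 reversed.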

Other observations

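*Acta2* encodes the smooth muscle actin of contractile myofibroblasts, and fibroblast-like cells of Day 7 were compared by their *Acta2* UMIs. At 5000 UMIs per cell, 445 cells had at least 5 *Acta2* UMIs and 4961 had fewer. Over 9652 genes the median ratio of shares in *Acta2*-high over other cells was 1.13, with 35.2% of genes at least 25% more often found in *Acta2*-high cells and 17.3% in the others, and within clusters the median was 1.03, with 16.7% and 15.8%. *Itgbl1* was found in 18.2% (14.7 to 22.1%) of the *Acta2*-high cells and in 29.3% (28.1 to 30.6%) of the others, a ratio of 0.620, and 0.675 within clusters. *Itga1* was in 10.3% (7.67 to 13.5%) against 4.43% (3.88 to 5.04%), and *Itga11* in 14.2% (11.1 to 17.7%) against 8.28% (7.53 to 9.09%). Their ratios were 2.33 and 1.71, and 1.64 and 1.67 within clusters. The ratios of *Itgb1*, *Itgb5*, *Itgav* and *Itga5* ran from 1.12 to 1.26, and within clusters from 1.04 to 1.24, where none of them reached the limit of 25%. *Itgb1* was in 98.9% (97.4 to 99.6%) against 88.5% (87.6 to 89.4%). Found in so many of the other cells, it could not have a ratio far above 1, so the limit says little about it. *Itgb3* was in fewer, 12.1% (9.25 to 15.5%) against 17.0% (16.0 to 18.1%), a ratio of 0.712, and 0.748 within clusters. *Acta2* itself was found in 19.5% of *Itgbl1*-positive and 27.2% of *Itgbl1*-negative cells, a ratio of 0.716 that was 0.810 within clusters, where it no longer passed the limit of 25%. Pericyte markers summed to 69.7 CPM in the *Acta2*-high cells and 116 CPM in the others, and *Rgs5*, a defining pericyte gene, was in 0.899% and 1.05% of them. Fibroblast markers summed to 75077 CPM in the *Acta2*-high cells and 119485 CPM in the others, and their part in the *Itgbl1* difference was not tested. Days 3 and 14 had 8 and 15 *Acta2*-high cells, too few to compare.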
